A study of Mus musculus with 6 samples.

Results

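Immediate early genes are switched on within minutes of a stimulus, from regulators already present in the cell and without new protein. Growth factor, stress and calcium signals reach them through MAP kinases, the serum response factor SRF with its ELK partners, and the cAMP response element binding protein CREB. The digestion of a tissue into single cells is itself known to induce them, and a level measured after digestion cannot tell tissue and handling apart. The genes described are Fos, Fosb, Jun and Junb (subunits of the AP-1 transcription factor), Egr1 (a zinc finger transcription factor), Atf3 (a stress-induced factor of the ATF/CREB family), Ier2 (a nuclear protein of the immediate early response), Nr4a1 (an orphan nuclear receptor, needed for nonclassical monocytes), Zfp36 (tristetraprolin, which promotes decay of inflammatory mRNAs) and Dusp1 (a phosphatase that switches MAP kinases off). They are 10 of the 32285 genes counted, and they were picked by symbol because earlier results on these libraries had shown them at different levels between treatments in AT2-like cells, so that contrast is given here as a description, with no test. The question was whether they behave as a response shared by all cells of a library or as one limited to AT2-like cells.

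The libraries came from 6 male mice of genotype hCTLA4, 12 weeks old, a knock-in line on the C57BL/6 background whose CTLA4 carries human sequence. All 6 had bleomycin-induced lung fibrosis, from oropharyngeal bleomycin at 1.25 U/kg in 2 doses given 2 weeks apart. From day 21 after the second dose, as the study describes it, 3 mice (labelled control) received an IgG1 isotype antibody and 3 (labelled anti-CLTA4 mAb) received ipilimumab, an antibody to human CTLA4, at 5 mg/kg, in both cases as intraperitoneal injections over 4.5 weeks. There were no mice without bleomycin, so the levels below are those of bleomycin-exposed lung. The right lung of each mouse was minced and digested with collagenase and DNase I with warm shaking, and the cell suspension gave 1 library of 3′ transcript tags per mouse, in which each unique molecular identifier (UMI) stands for 1 captured transcript whatever its length.

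Libraries held 37666042 to 48612412 UMIs, and 3268 to 4349 cells per mouse passed the filters, with a median of 5945 to 7885 UMIs per cell. Of the 24188 distinct cell barcodes, 61 occurred in more than 1 library. The library of ipilimumab replicate 1 stood apart, with 22056 barcodes of at least 100 UMIs against 4834 to 6230 in the others and with shallow cells in several tissue classes (a median of 1020 UMIs in AT2-like and 1290.5 in fibroblast-like cells). Cells were grouped by clusters made without the 10 genes, and each class is named by its likeness to marker genes. In all, 16 classes with at least 5 cells in at least 2 mice per group held 23269 cells, and 12 of these classes had such cells in all 6 mice. Levels are given as counts-per-million (CPM), the UMIs of a gene scaled to the total UMIs of a class in a mouse, and errors are SDs over mice.

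The genes were placed on GRCm38 by the GENCODE annotation, with Fos at chr12:85473890-85477273, Fosb at chr7:19302696-19310051, Jun at chr4:95049034-95052222, Junb at chr8:84974484-84978718, Ier2 at chr8:84661331-84662852, Atf3 at chr1:191170296-191218039, Nr4a1 at chr15:101254269-101274795, Zfp36 at chr7:28376784-28380253 and Dusp1 at chr17:26505590-26562128. RefSeq promoter windows (GRCm38.p6, 250 bases before to 50 after the start) were used for 8 of the 10, with Egr1 and Ier2 missing. The half-site of the cAMP response element, TGACG or its reverse complement CGTCA, occurred in 6 of these 8 windows and in 20.8% of all 32851 windows. The full element TGACGTCA, which contains both half-sites, was in the Dusp1 window and in 1.79% of all windows. The CArG box, bound by SRF, was in the Zfp36 window and in 1.63% of all windows, and the AP-1 element TGANTCA was in none of the 8 and in 7.81% of all. A match describes letters in the window and is not evidence of binding. Elements more than 250 bases before the start lie outside the windows, so a missing match does not mean that a gene lacks the element. The stretches below are shown because they carry the element that the members share most often. Each runs 5′ to 3′ on the strand of the gene, ends before the RefSeq start of its window, and has the half-sites in capitals. For Atf3, Nr4a1 and Dusp1 the stretch lies inside the GENCODE interval given above, since the RefSeq start used is another one.
Fos (chr12:85473741-85473848, plus strand): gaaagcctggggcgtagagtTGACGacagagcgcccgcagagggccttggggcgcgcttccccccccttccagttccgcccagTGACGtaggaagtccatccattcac
Fosb (chr7:19310081-19310125, minus strand): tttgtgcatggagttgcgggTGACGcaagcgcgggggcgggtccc
Junb (chr8:84978830-84978874, minus strand): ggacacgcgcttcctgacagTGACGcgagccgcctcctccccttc
Atf3 (chr1:191183334-191183360, minus strand): ggaagctattaatagcattaCGTCAgc
Nr4a1 (chr15:101266596-101266830, plus strand): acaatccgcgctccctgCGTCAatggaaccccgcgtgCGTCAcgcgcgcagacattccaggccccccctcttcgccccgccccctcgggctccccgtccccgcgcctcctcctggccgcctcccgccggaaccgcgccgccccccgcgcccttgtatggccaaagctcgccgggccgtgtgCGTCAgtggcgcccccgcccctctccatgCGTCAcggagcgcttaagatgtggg
Dusp1 (chr17:26508588-26508683, minus strand): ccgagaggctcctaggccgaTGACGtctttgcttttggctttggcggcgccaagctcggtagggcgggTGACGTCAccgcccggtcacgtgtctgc

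Each of the 10 genes was detected in every class. In the 12 classes with all 6 mice, their summed level varied far more between classes than between mice. Stromal cells stood highest. The sum was 23590 ± 4780 CPM in pericyte or smooth muscle-like cells and 19870 ± 1494 in fibroblast-like cells (n = 6 each). The name of the former is loose, since its markers were found in 6.54% (Cspg4) to 45.8% (Tagln) of its cells. Pdgfrb was in 31.4% of them and Acta2 in 34.6%. The leading genes of that class began with Hhip and Csmd1, and its likeness to fibroblast markers came second, with a score of 3.56 against 4.74. It was 11640 ± 974 in neutrophil-like cells (n = 6), 9858 ± 2891 in ciliated-like cells (n = 5) and 8987 ± 1020 in endothelial-like cells (n = 6). Mononuclear phagocytes lay in the middle, from 7862 ± 1177 in interstitial macrophage-like cells (n = 5) through 6037 ± 665 in alveolar macrophage-like, 5718 ± 814 in classical monocyte-like and 5488 ± 697 in nonclassical monocyte-like cells to 4812 ± 800 in cDC2-like cells (n = 6 each). AT2-like cells, the surfactant-making epithelium, had 3550 ± 2018 (n = 5). Lymphocytes were low, with 3251 ± 260 in NK-like, 3150 ± 313 in T-like and 2875 ± 310 in B-like cells, and plasma-like cells were lowest at 1883 ± 1111 (n = 5). Mature DC-like cells had 3484 ± 396 (n = 6). Clusters of 198, 155, 151 and 121 cells with Cd8b1 among their leading genes stayed unnamed, so T-like cells do not include them. Their sums were 2347 ± 499, 2817 ± 696, 3152 ± 718 and 3188 ± 766 (n = 6 each). A cluster of 100 cells with Cd8b1 among its leading genes was named NK-like.

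Of the 15 pairs of neighbouring classes in this order, only fibroblast-like and neutrophil-like cells had ranges over mice that did not overlap, so the order of close neighbours is not resolved. The order of distant classes held in each mouse: pericyte or smooth muscle-like and fibroblast-like cells took the first and second place in all 6. The highest class exceeded the lowest by 6.68-fold in ipilimumab replicate 2 and by 25.9-fold in IgG1 replicate 1. On the log2 scale the SD between classes within a mouse had a median of 1.04 (0.97 to 1.08 over 6 mice), and the SD between mice within a class had a median of 0.16 (0.11 to 0.30 over the 12 classes with all mice). AT2-like and plasma-like cells are not among those 12, and their sums spread more widely over mice. From the lowest to the highest mouse they rose 4.49-fold and 3.66-fold. These are descriptions, since each class is measured in the same 6 libraries.

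**Figure D1:**
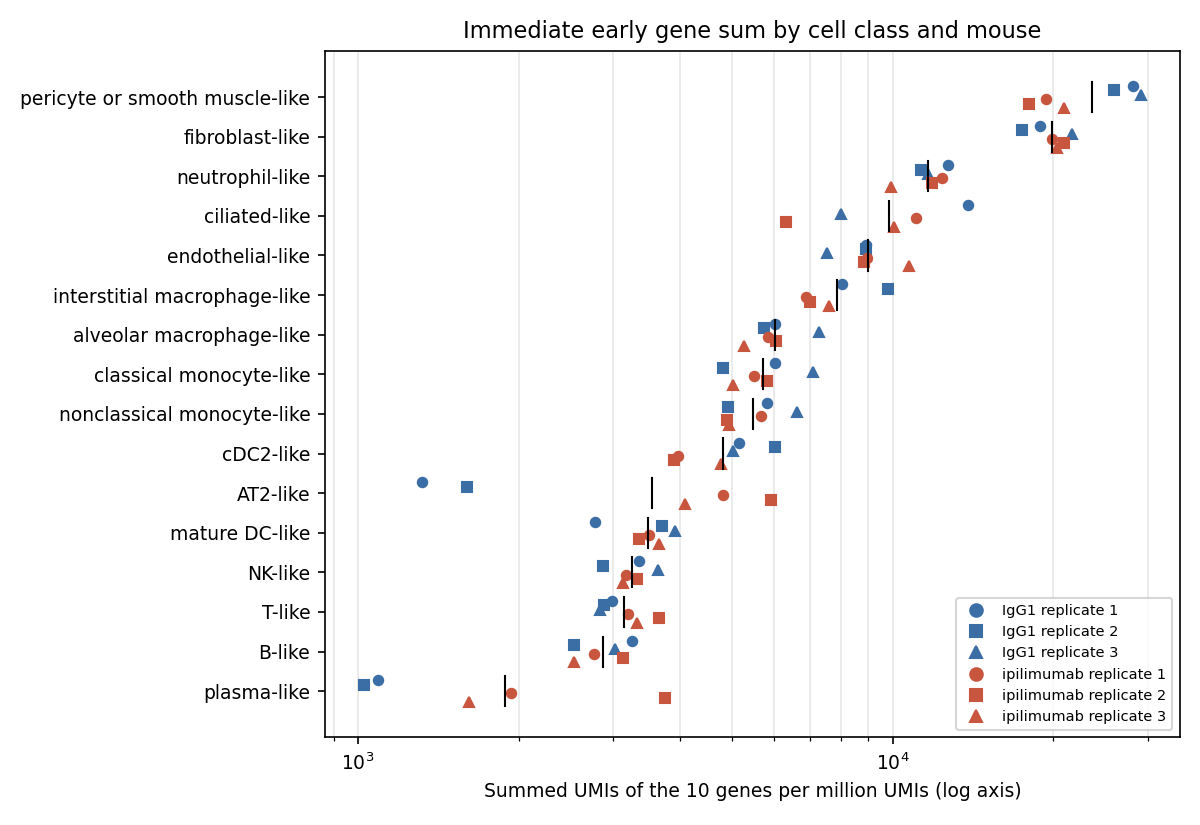
Summed level of the 10 immediate early genes in CPM (log axis) for each of 16 cell classes, with 1 point per mouse having at least 5 cells of the class (blue IgG1, red ipilimumab) and a black bar at the mean over mice. Pericyte or smooth muscle-like and fibroblast-like cells sit highest in every mouse, and the treatment groups lie farthest apart in AT2-like and plasma-like cells.

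At equal depth stromal cells still stood highest and lymphocytes low. When every cell was thinned to 1000 UMIs and shallower cells were left out, 6.73 ± 0.19 of the 10 genes were found per fibroblast-like cell and 6.58 ± 0.998 per pericyte or smooth muscle-like cell. Neutrophil-like cells followed with 4.62 ± 0.24, endothelial-like cells with 4.30 ± 0.36 and alveolar macrophage-like cells with 3.64 ± 0.24. B-like, T-like and NK-like cells had 1.86 ± 0.17, 1.89 ± 0.12 and 1.90 ± 0.18 (n = 6 in each case), and AT2-like cells had 2.35 ± 1.06 (n = 5). Ciliated-like cells came below each of the 5 mononuclear phagocyte classes named above, with 2.94 ± 1.92 (n = 5). Fos was found in 86.7% to 96.0% of thinned fibroblast-like cells over the mice (92.4% to 100% unthinned) and in 13.2% to 27.4% of thinned B-like cells (37.7% to 66.9% unthinned). At this depth 97.2% of fibroblast-like cells had at least 3 of the 10 genes, against 27.8% of B-like cells.

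Free RNA, which enters every droplet from broken cells, was rich in these genes. Among near-empty barcodes the sum was 9807 to 11490 CPM in the 6 libraries, which was 204% to 227% of the level over all cells of the same library (4804 to 5150). For IgG1 the values were 10720, 10270 and 10470, which overlapped with 11320, 11490 and 9807 for ipilimumab. The share of cell UMIs that came from free RNA, estimated from surfactant transcripts in T-like and B-like cells, was 0.645% to 0.972%. It rests on 30, 31 and 3 surfactant UMIs in the IgG1 mice and 276, 86 and 64 in the ipilimumab mice. At so small a share, subtraction could move the sums only little. With the expected free RNA subtracted, the mean sum was 2812 in B-like, 3088 in T-like, 19900 in fibroblast-like and 3480 in AT2-like cells, each within 1 SD of the value above.

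AP-1 subunits formed the largest part of the sum, in class-specific combinations. Junb led in 10 of 16 classes and made up 57.7%, 57.6% and 46.1% of the sum in T-like, NK-like and B-like cells. Its highest levels were 4136 ± 479 CPM in neutrophil-like and 4056 ± 1373 in pericyte or smooth muscle-like cells. Its lowest was 456 ± 292 in AT2-like cells.

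Jun had a different distribution from Junb. It reached 2337 ± 591 in pericyte or smooth muscle-like, 2250 ± 554 in fibroblast-like and 1640 ± 109 in endothelial-like cells. By its mean over mice it led the sum in endothelial-like and AT2-like cells. In endothelial-like cells Junb was above Jun in ipilimumab replicates 1 (1678 against 1523) and 3 (2021 against 1500). Egr1 was also above Jun in ipilimumab replicate 3, at 2105. In neutrophil-like cells, where Junb was highest, Jun was at its lowest, 103 ± 31. The Jun level there was 80.2, 87.0 and 132 in the IgG1 mice and 79.8, 86.1 and 150 in the ipilimumab mice, so low Jun beside high Junb was seen in every mouse.

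Fos was highest in fibroblast-like cells, at 4771, 4006 and 4735 CPM in the IgG1 mice and 4559, 5000 and 4100 in the ipilimumab mice. Pericyte or smooth muscle-like cells had 3940 ± 1296 and ciliated-like cells 2522 ± 677, of whose sum Fos was the leading 25.6%. The groups overlapped in fibroblast-like cells. NK-like cells had the least Fos, 144 ± 67, a 31.4-fold range over classes. Fosb ran from 137 ± 65 in NK-like to 2314 ± 385 in fibroblast-like cells, and its mean was below that of Fos in most classes. It was above Fos in neutrophil-like cells (1016 against 912) and mature DC-like cells (352 against 266). In plasma-like cells the means were close, at 283 and 280.

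Egr1 had the widest range of the 10 genes. It was 5627 ± 1112 in pericyte or smooth muscle-like, 3846 ± 589 in fibroblast-like, 1442 ± 365 in endothelial-like, 1052 ± 440 in ciliated-like and 850 ± 131 in neutrophil-like cells. It was 91.8 ± 44.3 in alveolar macrophage-like cells and 20.7 ± 26.2 in mature DC-like cells, a 272-fold range that rests at its lower end on few UMIs. B-like, T-like and nonclassical monocyte-like cells had 28.7 ± 7.4, 32.3 ± 4.0 and 26.0 ± 12.2.

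Atf3 was likewise highest in stromal and ciliated-like cells, at 1437 ± 630 in pericyte or smooth muscle-like and 962 ± 435 in ciliated-like cells, against 21.8 ± 7.8 in B-like cells. Ier2 had a narrow range, from 90.8 ± 33.5 in mature DC-like to 887 ± 409 in pericyte or smooth muscle-like cells, and was the second largest component in NK-like cells (12.9% of the sum). Nr4a1 was the member with a place of its own. It was highest in nonclassical monocyte-like cells, at 1078, 858 and 1354 CPM in the IgG1 mice and 1319, 1140 and 1053 in the ipilimumab mice. There it made up 20.7% of the sum, beside 20.3% for Junb. Junb was above Nr4a1 in IgG1 replicates 1 and 2 and in ipilimumab replicate 3. Nr4a1 was 469 ± 170 in classical monocyte-like cells and lowest in endothelial-like cells, 79.3 ± 21.5.

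Both feedback inhibitors were highest outside the lymphocytes. Dusp1 reached 2874 ± 237 CPM in neutrophil-like cells, where the mice ranged from 2456 to 3127, and the next class, interstitial macrophage-like cells, had 1058 ± 163. It was 61.7 ± 13.2 in plasma-like and 86.1 ± 17.5 in B-like cells. Zfp36 was 1788 ± 600.5 in pericyte or smooth muscle-like and 1114 ± 118 in fibroblast-like cells. In nonclassical monocyte-like cells it was 841 ± 122, 15.3% of the sum, and in NK-like cells 102 ± 27.

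**Figure D2:**
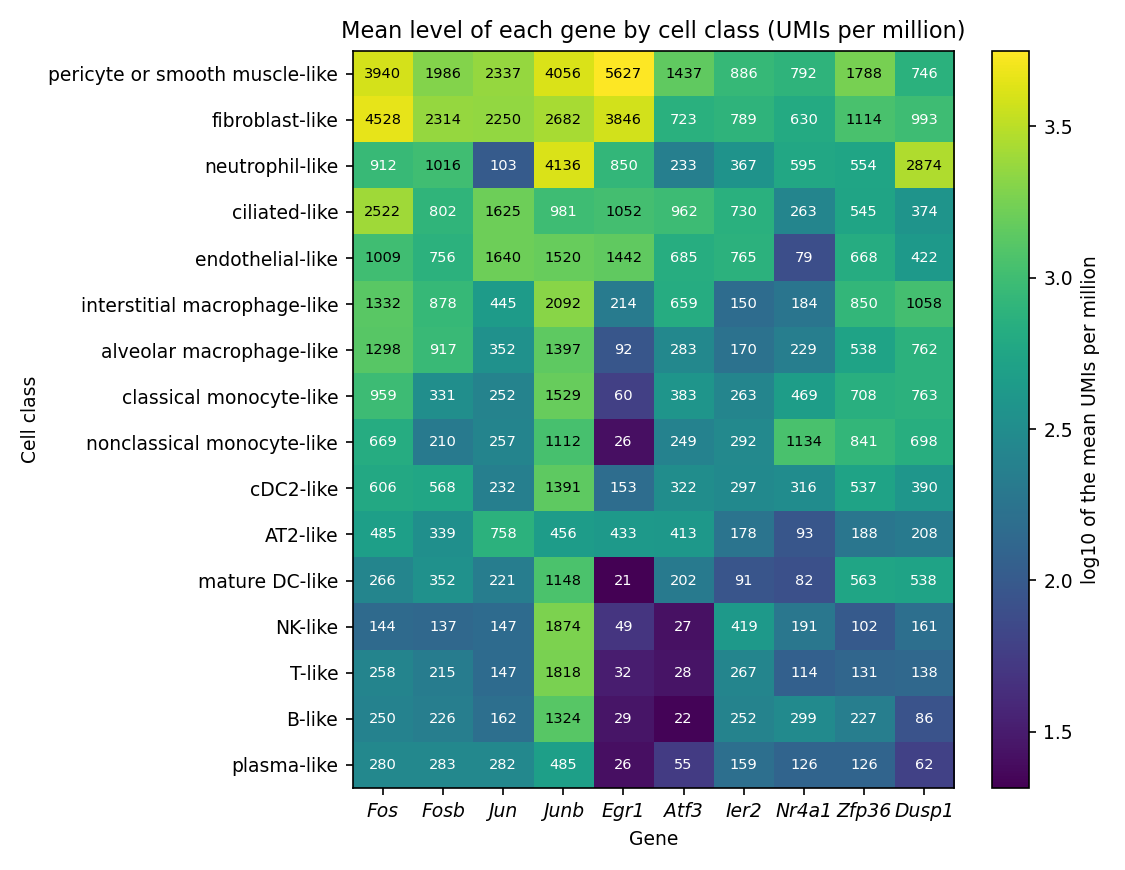
Mean CPM of each of the 10 genes (columns) in each of 16 cell classes (rows, ordered by the sum); the numbers are means over mice and the colour is their log10. Fos and Egr1 are highest in stromal classes, Junb leads in lymphocytes, Dusp1 and Junb stand out in neutrophil-like cells with Jun at 103, and Nr4a1 stands out at 1134 in nonclassical monocyte-like cells.

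Classes with the same name were not uniform. Within T-like cells, the cluster led by Ctla4 and Icos had a sum of 3930 ± 636 CPM and the cluster led by Lef1 and Dapl1 2741 ± 136 (n = 6 each). Within endothelial-like cells, the cluster led by Ptprb and Ldb2 had 10600 ± 1269 and the cluster led by Prickle2 and Kdr 7244 ± 1094. Among classical monocyte-like cells 3 clusters had 4923 ± 449, 5704 ± 925 and 8305 ± 1077.

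Over the 92 sums of a class in a mouse, unlisted genes whose log2 level followed that of the 10-gene sum most closely included Sertad1 (Pearson r = 0.81), Peli2 (0.80), Sntb2 (0.79), Gm17056 (0.78), Ctsl (0.77), Myh10 (0.77) and Midn (0.76). Listed genes outside the 10 reached similar values, with Cebpd at 0.81, Ier3 at 0.80, Gadd45g at 0.80 and Maff at 0.79. Of the 10, Fos had 0.90 with the sum it belongs to and Nr4a1 0.53. Points of 1 library share its depth and handling, and the 6 points of a class share its cells, so these values describe a pattern over classes.

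The mice did not keep 1 order across cell classes. In the 12 classes with all 6 mice, IgG1 replicate 3 was highest in 7 and lowest in 2. IgG1 replicate 1 was highest in 2, and IgG1 replicate 2, ipilimumab replicate 2 and ipilimumab replicate 3 in 1 each. IgG1 replicate 2 was lowest in 4 classes, and ipilimumab replicate 1, the library that stood apart, was neither highest nor lowest in any. The median deviation of a mouse from the class medians ran from −0.08 to 0.12 on the log2 scale, and single deviations from −0.37 to 0.33. Part of the order was shared: in alveolar macrophage-like, classical monocyte-like and nonclassical monocyte-like cells IgG1 replicate 3 led with 7272, 7093 and 6637 CPM. In endothelial-like and T-like cells the same mouse was lowest, with 7527 and 2838.

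**Figure D3:**
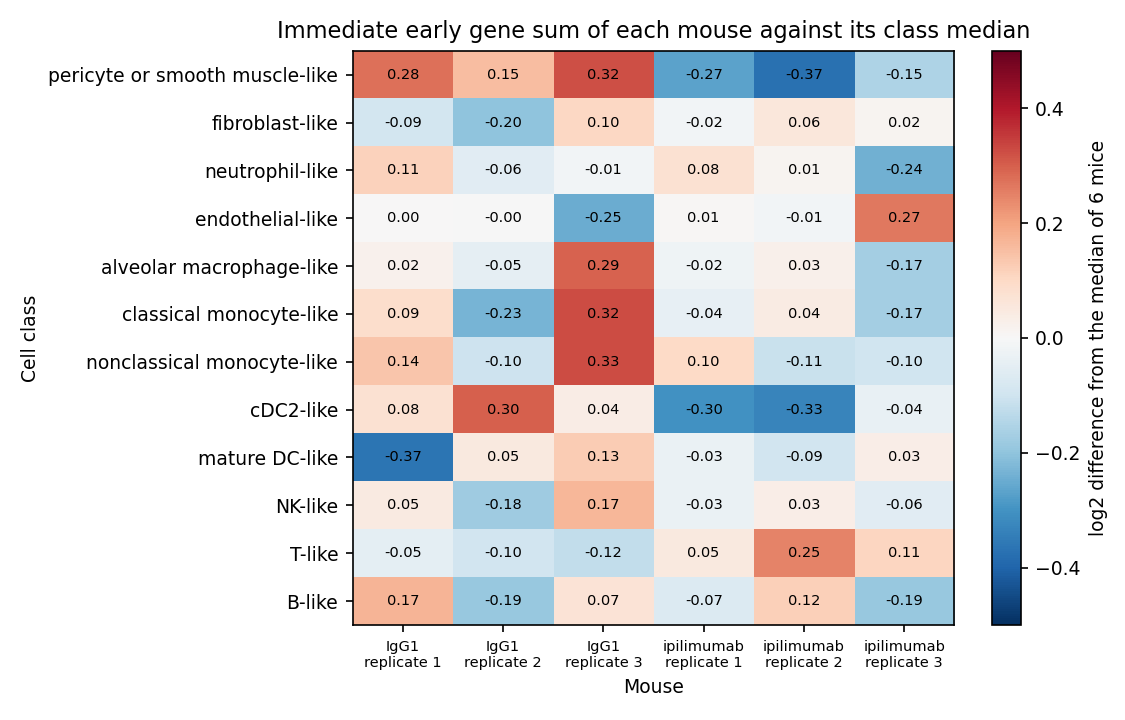
log2 difference of the 10-gene sum (CPM) of each of 6 mice (columns) from the median of the 6 mice, in the 12 cell classes measured in all mice (rows). IgG1 replicate 3 is above the median in most classes, yet lowest in endothelial-like and T-like cells, and no column has 1 sign throughout.

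The order also depended on the gene. IgG1 replicate 3 was highest for Jun in 9 of the 12 classes, for Atf3 and Zfp36 in 8 and for Dusp1 in 7. For Fos and Fosb it was highest in 6. For Junb and Ier2 it was highest in 0, and it was lowest in 4 and 5. In alveolar macrophage-like cells of this mouse Jun was 632 CPM against 230 to 383 in the other 5 mice, while Junb was 1246 against 1236 to 1547.

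Heat shock and chaperone genes, 14 of which were followed as a separate stress list, had another order. Their sum was highest in IgG1 replicate 2 in 11 of the 12 classes, for example 9986 CPM in fibroblast-like cells against 5975 to 7909 in the other mice, and 3316 against 2315 to 2920 in B-like cells. IgG1 replicate 2 was highest for the 10-gene sum in 1 class. The mouse that led for chaperones was therefore another one than the mouse that led for the immediate early genes.

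Between treatments, the genes had no direction common to all classes. The ratio of the mean sums, ipilimumab over IgG1, was 1.76 on the log2 scale in AT2-like and 1.20 in plasma-like cells. In the other 14 classes it lay between −0.52 in pericyte or smooth muscle-like and 0.23 in T-like cells, with fibroblast-like cells at 0.08, B-like cells at −0.06 and alveolar macrophage-like cells at −0.15. It was above 0 in 6 of the 16 classes. Gene by gene, the median log2 ratio of the members was −0.48 in pericyte or smooth muscle-like, −0.31 in B-like and 0.22 in T-like cells, and that of all genes tested was between −0.04 and 0.06 in every class. UMIs summed by mouse and class were tested in the 15 classes other than AT2-like with the edgeR quasi-likelihood method, with p-values adjusted over all genes of a class by the Benjamini-Hochberg method. None of the 147 tests of a member passed an adjusted p under 0.05 with an absolute log2 fold change over 0.3, and the lowest adjusted p was 0.184. The share of all genes called was 0.00847% in T-like, 0.0176% in ciliated-like and 0.13% in nonclassical monocyte-like cells and 0% in the other 12 classes. At an unadjusted p under 0.05 there were 32 member tests (21.8%, 13 higher and 19 lower with ipilimumab) against 6.87% of all 101938 gene tests. DESeq2 called 4 member tests, the fit without a filter on low counts 11, and the fit without IgG1 replicate 2 called 1.

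The smallest p belonged to Atf3 in B-like cells. Its level was 28.5, 31.0 and 26.4 CPM in the IgG1 mice and 16.5, 16.4 and 12.1 in the ipilimumab mice, so the groups did not overlap. The log2 fold change was −0.92 ± 0.13 (SE), with an unadjusted p of 1.6e-05 and an adjusted p of 0.184 by edgeR. Every ipilimumab mouse lay below every IgG1 mouse for 2 of the 10 members in these cells and for 6.22% of all genes tested, and 0 members lay above, against 6% of all genes. DESeq2 called Atf3 (adjusted p = 0.000352) and Fosb (adjusted p = 0.0274) here.

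In T-like cells the values of Atf3 lay in the other direction, and the difference between the classes was not tested. The level was 19.4, 27.7 and 11.5 in the IgG1 mice and 29.8, 41.3 and 37.5 in the ipilimumab mice (log2 fold change 0.90 ± 0.26, adjusted p = 0.367 by edgeR). DESeq2 called it, with an adjusted p of 0.0376. So did edgeR without IgG1 replicate 2, with an adjusted p of 0.0266. The 10-gene sum was 2983, 2890 and 2838 in the IgG1 mice and 3198, 3664 and 3326 in the ipilimumab mice, without overlap. In these cells 5 of the 10 members (Fosb, Junb, Atf3, Ier2 and Nr4a1) were higher in every ipilimumab mouse, as were 7.4% of all genes tested, and 0 were lower, against 5.24%. None of the 5 was called by edgeR with all mice and the filter on low counts, and without that filter Atf3 and Nr4a1 were. T-like sums pool clusters of unlike level. In the cluster led by Ctla4 and Icos, mean Atf3 was 67, Fosb 436, Nr4a1 197, Junb 2111 and Ier2 265 CPM. In the cluster led by Lef1 and Dapl1 they were 7.0, 98.3, 67.9, 1671 and 269. Whether the mix of clusters differed between the groups was not tested.

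In pericyte or smooth muscle-like cells the sum was 28210, 25940 and 29150 in the IgG1 mice and 19330, 18000 and 20930 in the ipilimumab mice, from 10, 6 and 24 cells and from 69, 16 and 28 cells. The groups did not overlap. Junb was 4485, 5711 and 5458 against 3178, 2326 and 3178 in the same order of mice. Egr1 was 6266, 7049 and 6339 against 4746, 4100 and 5260, and Atf3 was 2002, 1486 and 2358 against 976, 782 and 1021. With Fosb, these made 4 of 10 members lower in every ipilimumab mouse, against 6.33% of all genes, and 0 were higher, against 8.25%. The 69 cells of ipilimumab replicate 1 had a median of 1467 UMIs, against 6126 to 7605.5 in the other mice.

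In cDC2-like cells the sum was 5164, 6031 and 5028 in the IgG1 mice and 3970, 3900 and 4776 in the ipilimumab mice, from 11 to 30 cells per mouse. The member farthest apart was Fos, at 613, 1080 and 877 against 259, 465 and 340, without overlap (log2 fold change −1.31 ± 0.27, adjusted p = 0.507 by edgeR, 0.0174 by DESeq2). In all, 4 of 10 members were lower in every ipilimumab mouse, against 3.68% of all genes, and 0 were higher, against 6.74%.

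Interstitial macrophage-like cells also had 4 members lower in every ipilimumab mouse, against 9.17% of all genes, and 0 higher, against 8.66%. The sum was 8049 and 9791 in the IgG1 mice and 6877, 7001 and 7590 in the ipilimumab mice. IgG1 replicate 3 was left out there for its 4 cells, which had 8919. In plasma-like cells the sum was 1091 and 1025 against 1932, 3754 and 1612 (24, 5 and 15 cells), and 4 of the 9 members that passed the filter were higher in every ipilimumab mouse, as were 8.82% of all genes, with 0 lower against 12.5%. That gap rests on leaving out IgG1 replicate 3, whose 3 plasma-like cells had 2240, above 2 of the ipilimumab mice.

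In 6 other classes the sums of the groups overlapped. In fibroblast-like cells the sum was 18880, 17490 and 21640 in the IgG1 mice and 19910, 20950 and 20340 in the ipilimumab mice. Of the 10 members Junb was higher there in every ipilimumab mouse, against 7.2% of all genes, and 0 were lower, against 6.28%. No member separated the groups in neutrophil-like cells (8.23% of all genes higher, 3.15% lower), alveolar macrophage-like cells (5.8% and 3.88%) or classical monocyte-like cells (5.96% and 5.3%). Endothelial-like cells had 2 members higher in every ipilimumab mouse (Junb and Egr1), against 7.57% of all genes, and 2 lower (Jun and Dusp1), against 9.01%. The clusters pooled there differed in the same members. The cluster led by Ptprb and Ldb2 had Junb at 1958, Egr1 at 1940, Jun at 1603 and Dusp1 at 364 CPM. The cluster led by Prickle2 and Kdr had 1005, 848, 1769 and 496. Whether the mix of these clusters differed between the groups was not tested. NK-like cells had 1 higher, against 4.91%, and 2 lower, against 5.29%.

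The remaining classes had single members apart. Ciliated-like cells had Dusp1 at 286 and 133 in the IgG1 mice and 504, 413 and 537 in the ipilimumab mice, the 1 member higher, against 10.1% of all genes, and Atf3 as the 1 member lower, against 12.9%. IgG1 replicate 2, with 4 ciliated-like cells, was left out. Its Dusp1 level of 367 lay below the ipilimumab mice, and its Atf3 level of 734 lay below ipilimumab replicates 1 (860) and 3 (792), so that the gap in Atf3 rests on leaving it out. Nonclassical monocyte-like cells had Fosb lower, 1 of 10 against 6.75%, and 0 higher, against 7.82%. Mature DC-like cells had Dusp1 lower, 1 of the 8 members that passed the filter against 4.22%, and 0 higher, against 6.16%.

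**Figure D4:**
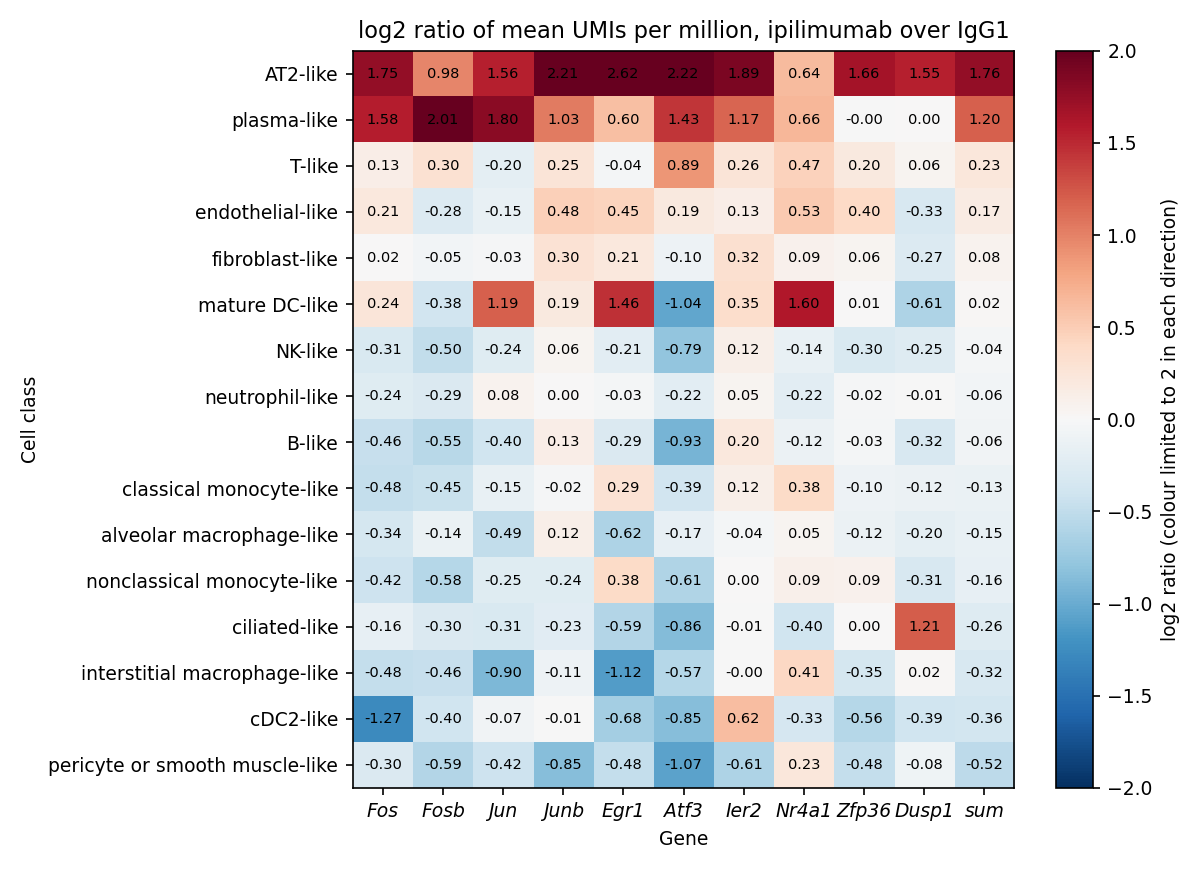
log2 ratio of the mean CPM over mice, ipilimumab over IgG1, for each of the 10 genes and their sum (columns) in 16 cell classes (rows, ordered by the sum), with colour limited to 2 in each direction. AT2-like cells, whose contrast was used to choose the genes, and plasma-like cells are red across most genes, and the other classes hold both signs.

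In AT2-like cells the contrast that led to these genes was large, and it rested on few cells. The class expressed the AT2 markers Sftpc (81040 CPM, in 88.0% of cells), Sftpb (4470), Lamp3 (824) and Slc34a2 (2023), and its leading genes also included Scgb1a1, a secretory gene of airway cells. There were 9, 14 and 2 AT2-like cells in the IgG1 mice and 169, 14 and 16 in the ipilimumab mice. The marker values pool all of these cells, so the 88.0% rests mostly on ipilimumab replicate 1. Of the same cells, 4, 5 and 0 in the IgG1 mice had at least 5% surfactant UMIs, against 154, 7 and 7 in the ipilimumab mice. IgG1 replicate 1 had a sum of 1319 CPM (219 UMIs) and IgG1 replicate 2 one of 1600 (278 UMIs), against 4820, 5918 and 4095 in the ipilimumab mice (2422, 1690 and 1961 UMIs). Those groups did not overlap.

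IgG1 replicate 3 was left out of that mean for its 2 cells, and its sum was 12350. Of its 184 member UMIs, 182 came from 1 cell with 2 surfactant UMIs, so surfactant transcripts, which define the class, were nearly absent there (0.0134% of UMIs, against 6.14% to 14.9% in the other mice). With this mouse kept, the log2 ratio of the sums was −0.04 in place of 1.76.

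By gene, Jun was 349 and 351 in the IgG1 mice and 1136, 1170 and 783 in the ipilimumab mice. Junb was 133 and 155 against 665, 756 and 570. Egr1 was 90.3 and 121 against 830, 560 and 562. These 3 and every other member but Nr4a1 separated the groups, as did 11.2% of all genes tested in that direction (6.79% in the other, with 0 members), and nothing is read from that count because the contrast was used to choose the genes. Nr4a1 was 48.2 and 92.1 against 89.6, 102 and 136. Zfp36 was 54.2 and 109 against 315, 256 and 205.

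**Figure D5:**
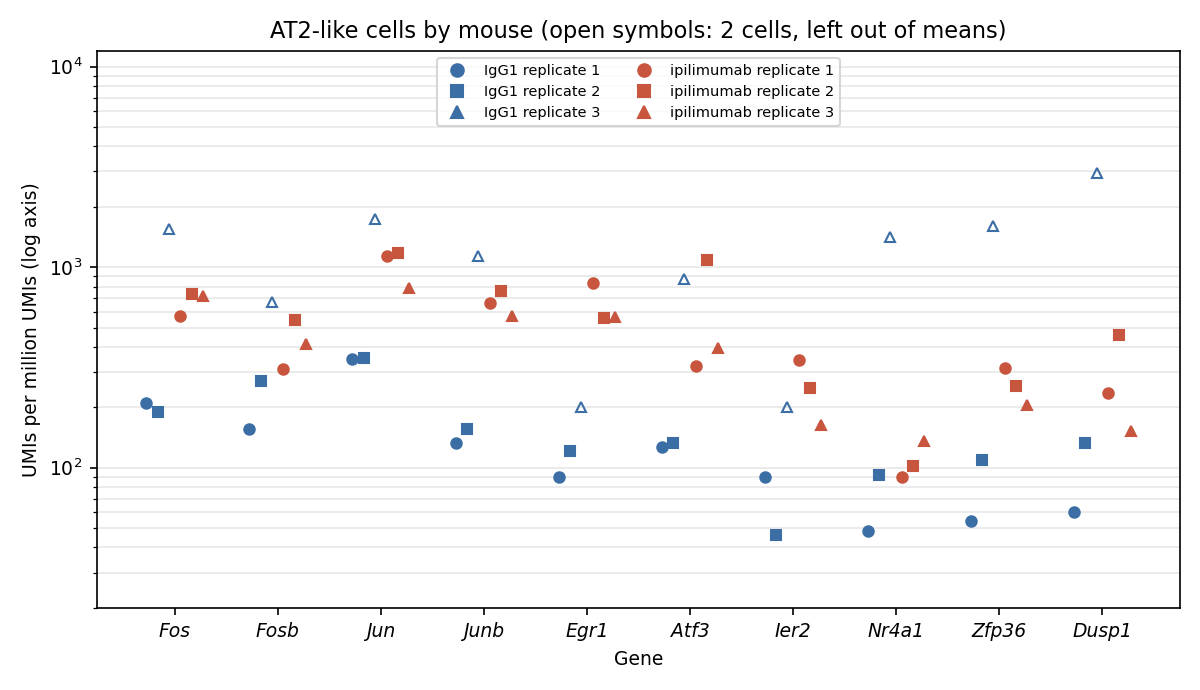
CPM (log axis) of each of the 10 genes in AT2-like cells of each mouse, IgG1 in blue and ipilimumab in red, with open symbols for IgG1 replicate 3, which had 2 such cells and was left out of means. The ipilimumab mice lie above IgG1 replicates 1 and 2 for all genes but Nr4a1, and the open symbols lie above all 5 others for 7 of the 10 genes.

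Against the other cells of the same mice, AT2-like cells had these places. Among classes with at least 5 cells, AT2-like cells ranked 15 of 16 for the sum in IgG1 replicate 1 and 14 of 15 in IgG1 replicate 2. In the ipilimumab mice they ranked 10, 8 and 11 of 16.

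The cells behind these values differed between mice. The cells of ipilimumab replicate 1 had a median of 1020 UMIs, and 155 of the 169 were called by profile alone, below the UMI threshold for cells. Those 155 had a sum of 4870 and the other 14 a sum of 4793. Restricting all mice to cells above that threshold gave sums of 1334 and 1620 in the IgG1 mice against 4793, 5987 and 4113 in the ipilimumab mice. Without ipilimumab replicate 1 the log2 ratio was 1.78.

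The thinned values use 9 and 10 cells of the IgG1 mice and 90, 13 and 16 of the ipilimumab mice. In these, 1.31 ± 0.28 of the 10 genes were found per AT2-like cell for IgG1 (n = 2) and 3.05 ± 0.64 for ipilimumab (n = 3). Single cells varied widely. The median over cells was 383 CPM in IgG1 replicate 1 and 1143 in IgG1 replicate 2, against 4071, 4140 and 2847 in the ipilimumab mice. The cell with the most member UMIs held 51.1% of them in IgG1 replicate 1, 45.7% in IgG1 replicate 2 (with 78 surfactant UMIs) and 40.2% in ipilimumab replicate 3 (with 23 surfactant UMIs). In ipilimumab replicates 1 and 2 it held 12.5% and 20.5%.

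Airway secretory markers differed between the mice. Cells with at least 5% of their UMIs from airway secretory markers were 3 of 9 in IgG1 replicate 1, 0 of 14 in IgG1 replicate 2, and 2 of 169, 1 of 14 and 7 of 16 in the ipilimumab mice, and they held 55.6% of the class's UMIs in IgG1 replicate 1 and 52.8% in ipilimumab replicate 3. Without them the sums were 2821 and 1600 in the IgG1 mice against 4958, 5743 and 6577 in the ipilimumab mice, a log2 ratio of 1.38 in place of 1.76. The part of these cells in the contrast was not tested further.

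A definition from surfactant alone gave smaller groups. Cells with at least 5% surfactant UMIs numbered 4, 5 and 0 in the IgG1 mice and 160, 7 and 7 in the ipilimumab mice. Their sums were 3524 and 518 in the IgG1 mice and 4870, 5345 and 4008 in the ipilimumab mice. The 2 IgG1 values were farther from each other than IgG1 replicate 1 was from the ipilimumab mice, at a log2 ratio of 1.23.

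The wider immediate early and feedback program gave no call in the 15 classes tested, where 10 of all 101938 gene tests passed. Of 19 other immediate early transcription factors and cofactors (among them Egr2, Fosl1, Maff and Klf4), 0 of 228 tests passed in either direction, with 105 positive fold changes. Class medians ran from −0.30 to 0.52, while the median of all genes tested lay between −0.02 and 0.02. Of 17 other feedback inhibitors (among them Socs3, Nfkbia, Dusp5 and Trib1), 0 of 211 tests passed, with 109 positive. Of 18 kinases and transcription factors upstream of the genes (among them Srf, Elk1 and Mapk3), 0 of 215 passed, with 123 positive. An unadjusted p under 0.05 by edgeR was found in 17.5% of the tests of other immediate early factors. The share was 11.8% for the feedback inhibitors and 5.12% for the upstream list, against 6.87% of all gene tests.

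The 14 heat shock and chaperone genes were the exception in direction, though none of their 177 tests passed. An unadjusted p under 0.05 by edgeR was found in 14.1% of these tests, against 6.87% of all gene tests. Only 29 of the fold changes were positive, and the class median was below 0 in 14 of 15 classes, from −0.43 in plasma-like to 0.11 in mature DC-like cells. In fibroblast-like cells, 0 of 14 were positive, and the summed level was 6378, 9986 and 7909 CPM in the IgG1 mice and 5975, 6922 and 6240 in the ipilimumab mice, with overlap. In nonclassical monocyte-like cells it was 3557, 4545 and 3712 against 3262, 3207 and 2704, without overlap. All classes come from the same 6 libraries, and IgG1 replicate 2 was the highest mouse in 11 of 12 classes.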

How the data were processed

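Each library was 1 mouse, measured with 10x 3′ chemistry (version 3.1), and the deposited matrices hold the authors' UMI counts per gene and barcode, unfiltered and without normalization, aligned to mm10. The file headers name Cell Ranger 4, the study's methods another release, and the submitters' processing notes Cell Ranger 7.0.0. The study's ambient correction and clustering came later, and no cell annotation by the authors was used here.

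Cells were called by UMI total (from the 99th percentile of 5000 expected cells) and, above 500 UMIs, by profiles unlike ambient RNA (barcodes ranked 45000 to 90000, 10000 simulated profiles, false discovery rate 0.01). Cells with at least 200 genes and at most 10% mitochondrial UMIs were kept, and doublets were removed by comparison with simulated ones (30 components). Leiden clusters (2000 variable genes, 10 components, 20 neighbours, resolution 0.8; scanpy 1.11.5, leidenalg 0.10.2) were made with 78 genes held out (the members and the lists of related genes), and were named from marker lists, so classes may differ from the study's. A class needed at least 5 cells in a mouse to enter a mean and 2 such mice in each group. Groups came from the labels.

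Sums of UMIs over the cells of a class in a mouse were tested for ipilimumab against IgG1 with edgeR 4.0.16 (R 4.3.3; TMM scaling, filterByExpr, quasi-likelihood test), and a call needed a log2 fold change beyond 0.3 in size with an adjusted p under 0.05. The script was checked on simulated counts. P-values measure the spread between 6 mice, each with 1 library, so mouse and library cannot be told apart. Alternatives were DESeq2 1.42.0, no filter, the replicate number as a block, leaving out each mouse, and other settings for cells, doublets, clusters and ambient RNA. The members and gene lists were chosen with earlier results of these data known. Named genes were the 10 members, members of the lists past the threshold and the 8 unlisted genes most like the sum (Pearson correlation of log2 levels with 10 CPM added), of which 1 is not reported here. Adjusted p-values of members that were not called are printed where another setting called them, an exception made after the values were seen.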

Additional observations from a re-analysis of the deposited data

Results flagged for a closer look

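In 6 classes every ipilimumab mouse lay on 1 side of every IgG1 mouse for the 10-gene sum, and the side was not the same in all of them. Of all genes tested, 11.2% in AT2-like, 8.82% in plasma-like and 7.4% in T-like cells lay higher in every ipilimumab mouse. Lower in every ipilimumab mouse were 6.33% in pericyte or smooth muscle-like, 3.68% in cDC2-like and 9.17% in interstitial macrophage-like cells. The log2 ratio of the mean sums was 1.76 in AT2-like, 1.20 in plasma-like and 0.23 in T-like cells, and it was −0.52 in pericyte or smooth muscle-like, −0.36 in cDC2-like and −0.32 in interstitial macrophage-like cells. The difference between these classes was not tested. The interstitial macrophage-like value was −0.17 without IgG1 replicate 2, −0.45 without IgG1 replicate 1 and −0.09 with cells gated one by one. The plasma-like value was 0.74 without ipilimumab replicate 2 and 0.63 with 30 principal components, and the pericyte or smooth muscle-like value was −0.32 with doublets kept. The cDC2-like value was −0.54 with cells gated one by one. The AT2-like value comes from the contrast used to choose the genes. The AT2-like, plasma-like and interstitial macrophage-like values leave out IgG1 replicate 3, which had 2, 3 and 4 cells of these classes. With that mouse kept, the groups overlapped in AT2-like and plasma-like cells and did not in interstitial macrophage-like cells.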

How the results depend on the processing

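None of the 147 member tests was called in the reported fit. DESeq2 called 4 (Atf3 and Fosb in B-like, Atf3 in T-like and Fos in cDC2-like cells) and the fit without a filter on low counts 11. Over all genes, where the reported fit called 10, DESeq2 called 196, the unfiltered fit 1979, cells by UMI total alone 6, at most 5% mitochondrial UMIs 16, resolution 0.4 gave 44 and cells gated one by one 3. Leaving out 1 mouse gave 0 to 1 member calls and 10 to 210 gene calls, with 210 and the 1 member (Atf3 in T-like cells) without IgG1 replicate 2. The causes were not tested. The replicate number as a block, which the data do not show to pair the mice, gave 3 member calls (Jun, Fosb and Fos in plasma-like cells) and 75 gene calls.

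The AT2-like log2 ratio of 1.76 was 1.43 with doublets kept, 1.12 with cells gated one by one, 1.23 in cells of at least 5% surfactant UMIs, 1.38 without cells rich in airway secretory RNA and −0.042 with every mouse kept (the last 2 chosen after seeing the data). It lay between 1.61 and 1.91 without 1 mouse, and resolution 1.6 gave no value for too few cells. In the other 15 classes, 187 of 201 values of the ratio under alternatives kept their sign, and the sign held under every alternative in 8 classes. In ciliated-like cells the values ran from −0.60 to 0.26, and in mature DC-like cells 9 of 14 kept the sign. Thinning to 500 UMIs gave 1.12 members per B-like and 4.78 per fibroblast-like cell.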
